A study of Mus musculus with 6 samples.

Results

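The genes that carry copper into cells, hand it to its enzymes and pump it out again were examined in the mouse cerebellum. They are 9 genes chosen by name (Slc31a1, Slc31a2, Atp7a, Atp7b, Atox1, Ccs, Cox17, Sco1 and Commd1), and all 9 were found among the 55098 genes of the deposited table. The tissue was cerebellum taken whole from males of postnatal day 60, with 3 animals labelled as Slc39a14 knock-out (KO; animals 2, 4 and 6) and 3 labelled as Slc39a14 wild type (WT; animals 1, 3 and 5), 1 RNA-seq library each. Slc39a14 encodes ZIP14, which carries manganese, iron and zinc into cells. The title presents its loss as a model of manganese-induced dystonia with parkinsonism beginning in childhood. The labels name no strain, no deleted exon and no treatment.

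Copper is both a cofactor and a toxin, so cells pass it from protein to protein and keep almost none of it free. The plasma membrane transporter CTR1 (Slc31a1) takes it up, small cytosolic chaperones bind it, and ATP-driven pumps load it into the secretory pathway or expel it. Mitochondria need it for cytochrome c oxidase. In the brain, CTR1 is known from the choroid plexus and the capillary wall, where copper crosses from the blood, and inherited loss of the pump ATP7A in humans causes Menkes disease, with severe damage to the cerebellum and cortex.

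Total counts per library were 13912821 to 15754275 in KO and 13805997 to 15788135 in WT. The targeted gene Slc39a14 stood at 41.1, 39.9 and 46.0 CPM (counts scaled to library size by TMM) in KO 2, 4 and 6, against 42.2, 41.2 and 43.9 CPM in WT 1, 3 and 5, a log2 fold change (KO minus WT) of -0.003 (SE 0.11). Its count therefore gave no check of genotype, also because the part deleted is not named, and KO and WT below mean the libraries labelled so. Markers of granule cells (10 of 10), Purkinje cells (10 of 10), astrocytes and Bergmann glia (9 of 9) and oligodendrocytes (10 of 10) were all detected well enough to be tested. Of 6 brainstem markers 2 passed the filter and 2 (Hoxa5 and Hoxb5) had 0 counts in all libraries; the 6 summed to 35.2 to 43.4 CPM in KO and 36.4 to 40.5 CPM in WT. The 17 markers of the choroid plexus summed to 2294, 3356 and 1078 CPM in KO 2, 4 and 6, against 1418, 615 and 453 CPM in WT 1, 3 and 5. All 17 were higher on average in KO (median log2 fold change 1.30), none passed the test, and the summed ranges of the groups overlapped. All 10 granule cell markers were lower on average in KO (median log2 fold change -0.12; summed 6504 to 6723 CPM in KO and 6984 to 7304 CPM in WT). All 10 microglia markers were higher on average in KO (median 0.47; summed 151 to 197 CPM in KO and 119.8 to 132 CPM in WT). Neither pair of summed ranges overlapped, 0 of these 20 genes passed the test, and the part of cell makeup in the values of the copper genes was not tested beyond the choroid plexus covariate.

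None of the 9 genes differed between KO and WT at an adjusted p under 0.05 (edgeR quasi-likelihood test over 17142 genes, Benjamini-Hochberg adjusted p = 1.0 for each). All 9 passed the filter on low counts. None had an unadjusted p under 0.05 in this edgeR fit, and DESeq2 and limma-voom also called 0 of the 9. Before adjustment Slc31a1 was under 0.05 with DESeq2 (unadjusted p = 0.0404) and with edgeR without the filter (unadjusted p = 0.0082, adjusted p = 0.685). It was also under 0.05 without KO 6, as given below. Over all genes tested, 8 were called, or 0.0467%, so 0 of 9 is near that background. Of the 9 log2 fold changes (KO minus WT) 5 were positive and 4 negative, with a median of 0.01, beside a median of -0.004 over all genes tested. In 7 of the 9 the estimate lay within 0.1 of 0. The KO and WT libraries overlapped in all 9, while 7.26% of all tested genes had groups that did not overlap. The lowest bound of the 9 intervals (95%) was a 0.701-fold level in KO relative to WT, for Ccs, and the highest was a 1.69-fold level, for Slc31a1. The labels number each library as an animal of its own, so the p-values measure the spread between animals of these 2 groups.

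**Figure D1:**
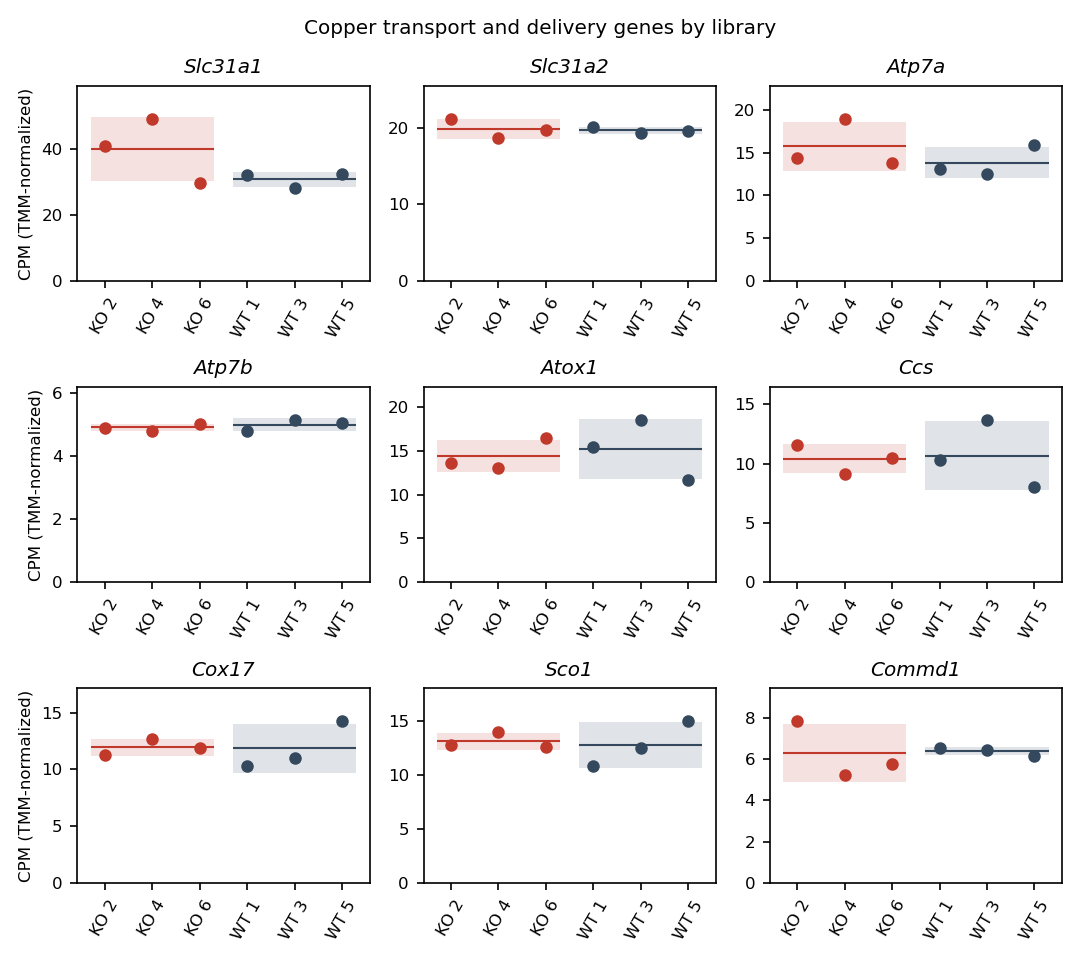
TMM-normalized CPM of the 9 copper genes in each library, with KO libraries in red on the left and WT libraries in dark blue on the right of each panel; lines are group means and shaded bands are 1 SD (n = 3 each). Slc31a1 in KO 2 and KO 4 (41.0 and 49.4 CPM) stands above the other 4 libraries (28.1 to 32.4 CPM), and the groups overlap in all 9 panels.

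Among the uptake genes, Slc31a1 had the estimate farthest from 0 of all 9 members. Slc31a1 (ENSMUSG00000066150, chromosome 4, 62360727 to 62391769, plus strand, GRCm38.p6) was at 41.0, 49.4 and 29.9 CPM in KO 2, 4 and 6, against 32.1, 28.1 and 32.4 CPM in WT 1, 3 and 5. KO 2 and KO 4 lay above every WT library, and KO 6 lay between WT 3 and WT 1. The means were 40.1 ± 9.78 CPM in KO, against 30.9 ± 2.38 CPM in WT (n = 3 each, SD). Slc31a1 thus had a log2 fold change of 0.38 (SE 0.17; 95% interval from -0.01 to 0.76; edgeR unadjusted p = 0.0541, adjusted p = 1.0). In the authors' deposited table the same gene has a log2 fold change of 0.38 with p = 0.0404 and an adjusted p of 1.0.

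KO 4 and KO 2, the libraries highest in Slc31a1, were also those with most choroid plexus RNA, while the other 4 libraries did not keep this order. Summed choroid plexus markers were highest in KO 4 (3356 CPM) and next highest in KO 2 (2294 CPM), the order seen for Slc31a1. The other 4 libraries were at 453 to 1418 CPM. Of these 4, WT 5 was lowest in the markers (453 CPM) but highest in Slc31a1 (32.4 CPM). WT 1, highest of the 4 in the markers (1418 CPM), had 32.1 CPM of Slc31a1. With the mean log2 CPM of these markers added to the fit as a covariate, Slc31a1 came to 0.07 on the log2 fold change scale (SE 0.23, 95% interval -0.45 to 0.60; edgeR adjusted p = 1.0). Without KO 4 the log2 fold change was 0.20 (SE 0.16), and without KO 6 it was 0.55 (SE 0.14; unadjusted p = 0.00327, adjusted p = 0.741 in edgeR). The part of the choroid plexus in the value of Slc31a1 was not tested further. In bulk tissue, more cells of a type and more RNA per cell cannot be told apart.

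**Figure D2:**
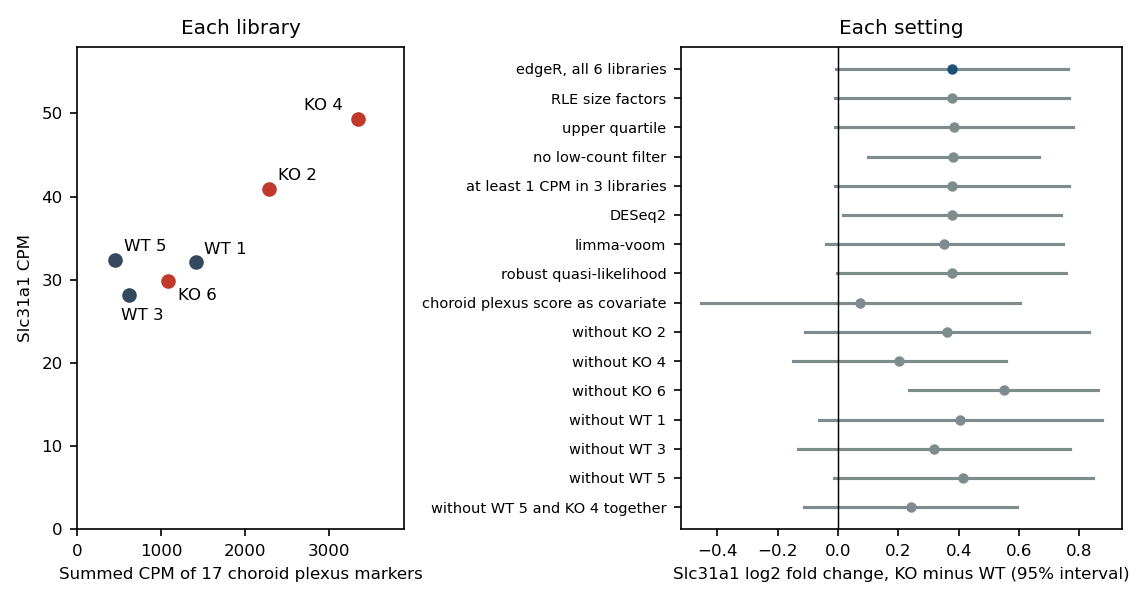
Left: Slc31a1 in CPM against the summed CPM of 17 choroid plexus markers, 1 point per library (KO red, WT dark blue). Right: log2 fold change of Slc31a1 (KO minus WT) with its 95% interval under each setting, the reported fit in blue; it is 0.38 with all libraries, 0.55 without KO 6 and 0.07 with the choroid plexus score as a covariate.

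Slc31a2, which encodes the CTR2 protein of endosomes and lysosomes, lies next to Slc31a1 on chromosome 4 (ENSMUSG00000066152, 62262562 to 62298411, plus strand), with Fkbp15 between them. It was at 21.2, 18.6 and 19.7 CPM in KO 2, 4 and 6, against 20.1, 19.3 and 19.6 CPM in WT 1, 3 and 5. All 6 libraries lay between 18.6 and 21.2 CPM, and the groups overlapped. The log2 fold change of Slc31a2 was 0.02 (SE 0.12, 95% interval -0.26 to 0.29). KO 4, the highest library in Slc31a1, was the lowest in Slc31a2.

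Neither pump differed between KO and WT beyond the spread of its libraries. Atp7a (ENSMUSG00000033792, X chromosome, 106027276 to 106124926, plus strand) encodes the Menkes disease pump, which supplies copper to enzymes of the secretory pathway and exports it. It was at 14.4, 19.0 and 13.8 CPM in KO 2, 4 and 6, against 13.1, 12.5 and 15.9 CPM in WT 1, 3 and 5. KO 4 and WT 5 were each the highest of their group, and the remaining 4 libraries lay between 12.5 and 14.4 CPM. The log2 fold change of Atp7a was 0.19 (SE 0.17, 95% interval -0.20 to 0.57; edgeR adjusted p = 1.0), and 0.03 (SE 0.17) without KO 4. Atp7b (ENSMUSG00000006567, chromosome 8, 21992785 to 22060305, minus strand) encodes the pump whose loss in humans causes Wilson disease, a copper overload of liver and brain. It stood at 4.91, 4.82 and 5.03 CPM in KO 2, 4 and 6, against 4.79, 5.17 and 5.06 CPM in WT 1, 3 and 5. With 66 to 81 counts per library, its spread between libraries cannot be told apart from counting error. The log2 fold change of Atp7b was -0.03 (SE 0.19, 95% interval -0.45 to 0.39).

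Slc31a1 and Atp7a, the members with the largest positive estimates, are shown with the 250 bases before their RefSeq start (GRCm38.p6). Capitals mark the core of the metal response element, the site of the metal-sensing factor MTF-1, searched as TGCACNC and TGCGCNC on both strands. The Slc31a1 window (chr4:62360451-62360700, plus strand) holds no match and the Atp7a window (chrX:106026974-106027223, plus strand) holds 1 match to each form, starting 132 and 120 bases before the start.
Slc31a1: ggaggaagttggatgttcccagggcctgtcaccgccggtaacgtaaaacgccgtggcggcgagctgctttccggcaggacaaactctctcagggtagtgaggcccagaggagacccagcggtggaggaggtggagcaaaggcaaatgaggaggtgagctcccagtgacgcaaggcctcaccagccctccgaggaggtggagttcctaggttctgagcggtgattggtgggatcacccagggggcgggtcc
Atp7a: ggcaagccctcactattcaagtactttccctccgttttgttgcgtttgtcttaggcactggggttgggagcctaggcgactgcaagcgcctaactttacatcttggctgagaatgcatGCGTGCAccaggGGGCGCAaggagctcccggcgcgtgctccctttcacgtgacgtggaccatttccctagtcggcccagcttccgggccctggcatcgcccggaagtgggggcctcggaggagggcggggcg
Of 32851 promoter windows of this length in the RefSeq table, 21.4% hold at least 1 of these cores, so a match describes the letters of a window and is common. The table matched 7 of the 9 genes, and windows of Slc31a2, Atp7b and Commd1 also held a match, while those of Atox1 and Sco1 did not. Mtf1 itself had 43.0 ± 0.262 CPM in KO, against 43.8 ± 1.18 CPM in WT (n = 3 each, SD).

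The cytosolic chaperones varied more within each genotype than between them. Atox1 (ENSMUSG00000018585, chromosome 11, 55446641 to 55461239, minus strand) delivers copper to both pumps. It was at 13.7, 13.0 and 16.4 CPM in KO 2, 4 and 6, against 15.4, 18.6 and 11.7 CPM in WT 1, 3 and 5. The WT libraries thus held both the highest and the lowest value (log2 fold change -0.09, SE 0.19, 95% interval -0.51 to 0.34). Ccs (ENSMUSG00000034108, chromosome 19, 4825366 to 4839322, minus strand) encodes the chaperone that inserts copper into superoxide dismutase 1. It was at 11.6, 9.15 and 10.5 CPM in KO 2, 4 and 6, against 10.3, 13.7 and 7.99 CPM in WT 1, 3 and 5. Ccs, like Atox1, was highest in WT 3 and lowest in WT 5 (log2 fold change -0.04, SE 0.21, 95% interval -0.51 to 0.43). Sod1, the enzyme that Ccs serves, had 95.4 ± 6.73 CPM in KO, against 96.2 ± 2.87 CPM in WT (n = 3 each, SD; log2 fold change -0.01, SE 0.09).

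The mitochondrial delivery genes were highest in WT 5, the library lowest in both cytosolic chaperones. Sco1 (ENSMUSG00000069844, chromosome 11, 67052670 to 67067070, plus strand) encodes a protein of the inner membrane that inserts copper into cytochrome c oxidase. It was at 12.8, 14.0 and 12.6 CPM in KO 2, 4 and 6, against 10.8, 12.5 and 15.04 CPM in WT 1, 3 and 5. WT 5 was the highest library and WT 1 the lowest, with all KO libraries between them (log2 fold change 0.04, SE 0.16, 95% interval -0.33 to 0.40). Cox17 (ENSMUSG00000046516, chromosome 16, 38346991 to 38352763, plus strand) encodes the small chaperone of the space between the mitochondrial membranes that hands copper to SCO1. It was at 11.3, 12.7 and 11.8 CPM in KO 2, 4 and 6, against 10.3, 11.0 and 14.3 CPM in WT 1, 3 and 5, again with WT 5 highest and WT 1 lowest. The log2 fold change of Cox17 was 0.01 (SE 0.17, 95% interval -0.37 to 0.39).

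The count of Cox17 is uncertain because another annotated gene shares its coding exons. In the GENCODE M21 annotation (GRCm38) all 192 bases of its coding sequence, and 257 of the 444 bases of its principal transcript, also lie in exons of Gm21987 on the same strand, which had 0 counts in all 6 libraries. The coding sequence is shown since every base of it is shared; capitals mark its 6 in-frame cysteine codons, the residues through which the family binds copper and forms disulfides.
Cox17 coding sequence: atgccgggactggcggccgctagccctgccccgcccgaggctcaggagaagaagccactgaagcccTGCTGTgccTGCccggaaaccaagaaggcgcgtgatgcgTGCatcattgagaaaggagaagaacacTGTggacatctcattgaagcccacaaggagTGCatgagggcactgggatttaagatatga
Cox17 had 179, 182 and 165 counts in KO 2, 4 and 6, and 142, 172 and 195 counts in WT 1, 3 and 5. The listed length of Cox17, 5773 bases, equals its whole span, introns included. No source used here says how reads over shared exons were assigned, and which part of the gene these counts come from was not tested.

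Commd1 (ENSMUSG00000051355, chromosome 11, 22896136 to 22982382, minus strand) encodes a protein of the endosomal sorting machinery that brings ATP7A and ATP7B back to the cell surface; its deletion causes copper toxicosis in dogs. It was at 7.86, 5.24 and 5.74 CPM in KO 2, 4 and 6, against 6.53, 6.44 and 6.16 CPM in WT 1, 3 and 5. KO 2 was the highest library and KO 4 the lowest, and the WT libraries lay between them (log2 fold change -0.02, SE 0.21, 95% interval -0.48 to 0.44). Of its exon bases in the annotation, 4.95% lie in exons of Gm28048 on the same strand, which had 0 counts, and 6.94% in exons of Zrsr1 on the opposite strand. Zrsr1 had 997 to 1214 counts per library and Commd1 75 to 125, and no source used here says whether strand was used, so the count of Commd1 is uncertain.

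Per length, Atox1 was the most abundant of the 9 genes and Atp7b the least. In the deposited FPKM (fragments scaled to gene length and to the library), averaged over the 6 libraries, Atox1 was at 26.0 ± 4.43 (SD, n = 6), and its lowest library lay above the highest library of every other member. Ccs (9.50 ± 1.78 FPKM), Slc31a2 (9.26 ± 0.385 FPKM) and Slc31a1 (7.90 ± 1.78 FPKM) followed, and neighbours among these 3 overlapped in range. Sco1 was at 3.14 ± 0.361 FPKM, apart from its neighbours on either side. Cox17 (1.97 ± 0.245 FPKM) and Atp7a (1.61 ± 0.259 FPKM) overlapped. Commd1 (1.02 ± 0.141 FPKM) and Atp7b (0.727 ± 0.0247 FPKM) came last, without overlap. With the length of the principal transcript in place of the listed length, Cox17 came to 25.6 ± 3.19 FPKM and overlapped Atox1, Atp7a came to 2.87 ± 0.461 FPKM, and Atp7b remained lowest. Atp7a was thus above Atp7b in every library on either length. The second value of Cox17 places all its counts on 444 bases, of which 257 also lie in exons of Gm21987. Which part of the gene these counts come from was not tested, so its place beside Atox1 is uncertain.

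**Figure D3:**
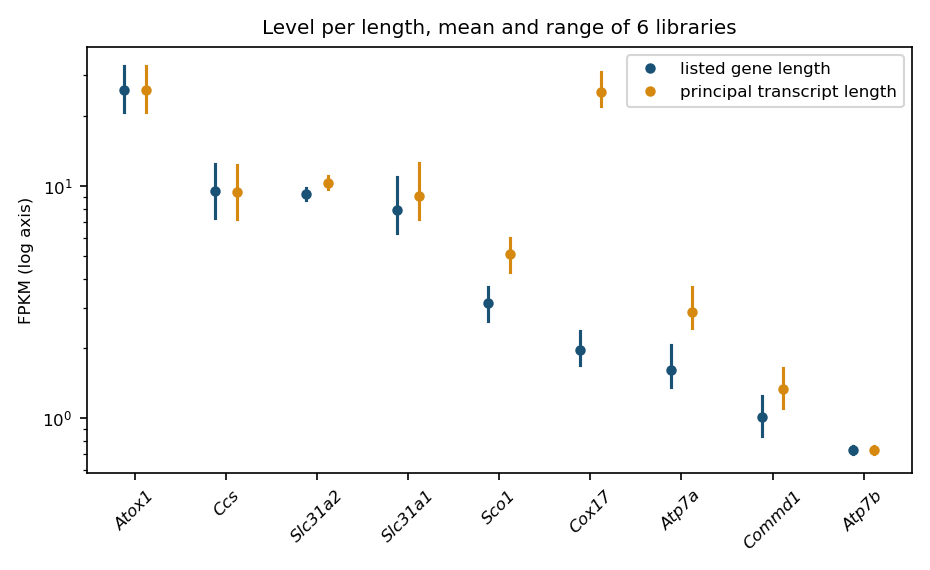
Level of each gene in FPKM on a log axis, as the mean (point) and range (bar) of 6 libraries, with the listed gene length in blue and the principal transcript length in orange. Atox1 is highest and Atp7b lowest on the listed length. Cox17 moves most with the length used (1.97 FPKM on the listed and 25.6 FPKM on the principal transcript length), and Ccs and Slc31a2, which overlap, exchange places. The count of Cox17 is uncertain because its coding exons are shared with Gm21987.

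Some members moved with a split of libraries that crosses the genotypes. WT 5 lay above the mean of WT 1 and WT 3 by 0.31 in Atp7a, 0.37 in Sco1 and 0.42 in Cox17 on the log2 CPM scale, and below it by the values -0.53 in Atox1 and -0.56 in Ccs. KO 4 relative to KO 2 and KO 6 had the same signs, at 0.43 in Atp7a, 0.14 in Sco1, 0.14 in Cox17, -0.20 in Atox1 and -0.26 in Ccs. Atox1 and Ccs have the shortest listed lengths of the 9 genes (541 and 1057 bases) and Atp7a the longest (8734 bases). Commd1 and Atp7b, with listed lengths of 5936 and 6505 bases, did not follow length. Commd1 was at -0.07 in WT 5 and -0.35 in KO 4, and Atp7b at 0.02 and -0.04. Cox17, which rose in both, has a listed length of 5773 bases but the shortest principal transcript of the 9 genes (444 bases). Over all tested genes, the 4727 genes longer than 6000 bases had a median deviation of 0.09 in WT 5 and 0.05 in KO 4, and the 2256 genes shorter than 1500 bases had -0.05 in WT 5 and -0.04 in KO 4. The part of transcript length in the spread of these members was not tested. Without WT 5 and KO 4 together, the log2 fold change was 0.24 (SE 0.16) for Slc31a1, 0.14 (SE 0.15) for Atp7a and -0.18 (SE 0.17) for Atox1, and again none of the 9 passed.

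The genes most like Slc31a1 and Atp7a over the 6 libraries were found among 13685 protein-coding genes of at least 1 CPM, by Pearson correlation of log2 CPM and without a test. For Slc31a1 these were 1110004F10Rik, Cd302 and Wdr35 (r = 0.99 each), and 149 genes had r above 0.9. For Atp7a they were Arl6ip6, Zfp583 and Fam45a (r = 0.998, 0.997 and 0.991), and 357 genes had r above 0.9. With 6 libraries and so many genes, such values are a description of shared libraries.

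The wider copper network showed no called gene either. Of 59 further genes, 50 passed the filter, 30 of these had a positive and 20 a negative log2 fold change (median 0.02), and 0 were called (edgeR; 2 had an unadjusted p under 0.05, as did 2.75% of all tested genes). DESeq2 and limma-voom called 0 of this list as well, and edgeR without the filter called 1, Dbh. In 5 of the 50 the KO libraries lay above all WT libraries and in 0 below, where 3.58% and 3.68% of all tested genes did so.

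The metalloreductase Steap2, which reduces copper and iron before uptake, had 143 ± 30.3 CPM in KO, against 137 ± 12.5 CPM in WT (n = 3 each, SD), and both tested metalloreductases had intervals that included 0 (Steap2 0.06, SE 0.15; Steap3 0.15, SE 0.40). Of the 8 tested genes of mitochondrial copper handling and oxidase assembly, 6 were positive. Slc25a3, which carries copper and phosphate into the matrix, was at 0.04 (SE 0.09) and Coa6 at 0.04 (SE 0.16) on the log2 fold change scale. Cox11 (0.27, SE 0.23) and Cox16 (0.26, SE 0.19) had the smallest p of the group and did not pass. In Cox16 the libraries did not overlap (4.91 to 5.94 CPM in KO and 4.55 to 4.79 CPM in WT), but 88.8% of its principal transcript lies in exons of Gm20498 on the same strand. For Cox11 56.2% lies in exons of Tom1l1 on the opposite strand. Both counts are uncertain.

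Relatives and partners of COMMD1 stayed close to 0. Of 9 tested, 5 were positive and 4 negative, from -0.15 (Ccdc93, SE 0.12) to 0.15 (Commd3, SE 0.13) on the log2 fold change scale, and Commd4 was at -0.07 (SE 0.14). Metallothioneins, which buffer copper and zinc and are induced by metals, included Mt1 with 226 ± 66.7 CPM in KO, against 224 ± 27.4 CPM in WT (n = 3 each, SD; log2 fold change 0.01, SE 0.20). Mt3, the brain form, had 71.5 ± 7.97 CPM in KO, against 76.8 ± 10.8 CPM in WT. Mt2 had low counts and a wide error (0.45, SE 0.63), and 69.5% of its principal transcript lies in exons of Gm45774 on the opposite strand, so its count is uncertain. Of 5 regulators 4 were negative, among them Glrx, which reduces the copper-binding thiols of the pumps (-0.17, SE 0.14), and Ap1s1, a subunit of an adaptor that sorts them (-0.08, SE 0.13); Xiap, a partner of CCS and COMMD1, was at 0.02 (SE 0.13).

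Copper enzymes held both genes of the network with an unadjusted p under 0.05 in the reported edgeR fit, Lox and Moxd1. The unadjusted p of Lox was 0.105 with DESeq2, 0.0533 with limma-voom and 0.0663 with edgeR without the filter. For Moxd1 it was 0.0695 with DESeq2, 0.0576 with limma-voom and 0.0276 with edgeR without the filter. Lox, which crosslinks collagen and elastin, was at 2.83, 3.91 and 2.73 CPM in KO 2, 4 and 6, against 2.03, 2.11 and 2.05 CPM in WT 1, 3 and 5 (log2 fold change 0.61, SE 0.27; edgeR unadjusted p = 0.0454, adjusted p = 1.0). Moxd1, a relative of dopamine beta-hydroxylase, was at 3.21, 5.10 and 2.80 CPM in KO 2, 4 and 6, against 2.76, 2.23 and 1.83 CPM in WT 1, 3 and 5 (0.70, SE 0.31; edgeR unadjusted p = 0.0460, adjusted p = 1.0). Both were highest in KO 4, as were the choroid plexus markers and the 6 meningeal markers (98.3, 130 and 105 CPM summed in KO 2, 4 and 6, against 109, 98.0 and 74.3 CPM in WT 1, 3 and 5). With the choroid plexus score as a covariate the log2 fold changes were 0.40 (SE 0.39) for Lox and 0.12 (SE 0.36) for Moxd1, without KO 4 they were 0.43 (SE 0.29) and 0.41 (SE 0.31), and the part of either tissue was not tested further.

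The most abundant copper enzyme was mt-Co1, the mitochondrially encoded subunit of cytochrome c oxidase that receives copper through the COX17 route. Its mean was 13396 ± 2557 CPM in KO, against 12978 ± 1335 CPM in WT (log2 fold change 0.05, SE 0.14). The other copper-bearing subunit, mt-Co2, had 67.9 ± 8.23 CPM in KO, against 69.6 ± 13.7 CPM in WT (log2 fold change -0.04, SE 0.15). Per length mt-Co2 was at 95.8 FPKM and mt-Co1 at 8137 FPKM, and whether reads of mt-Co2 were divided with near-identical nuclear copies was not tested, so its count is uncertain. The copper-binding proteins App (0.001, SE 0.08) and Prnp (0.04, SE 0.09) had narrow intervals around 0. Of 7 genes of protein lipoylation and pyruvate dehydrogenase, the targets of copper-induced cell death, 3 were positive. Lias, the lipoic acid synthase, had 29.3 ± 1.68 CPM in KO, against 26.3 ± 0.550 CPM in WT (0.15, SE 0.11; unadjusted p = 0.195 in edgeR), with groups that did not overlap. Dlat (-0.05, SE 0.09), Dld (0.02, SE 0.12) and Pdhb (-0.02, SE 0.10) did not pass.

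**Figure D4:**
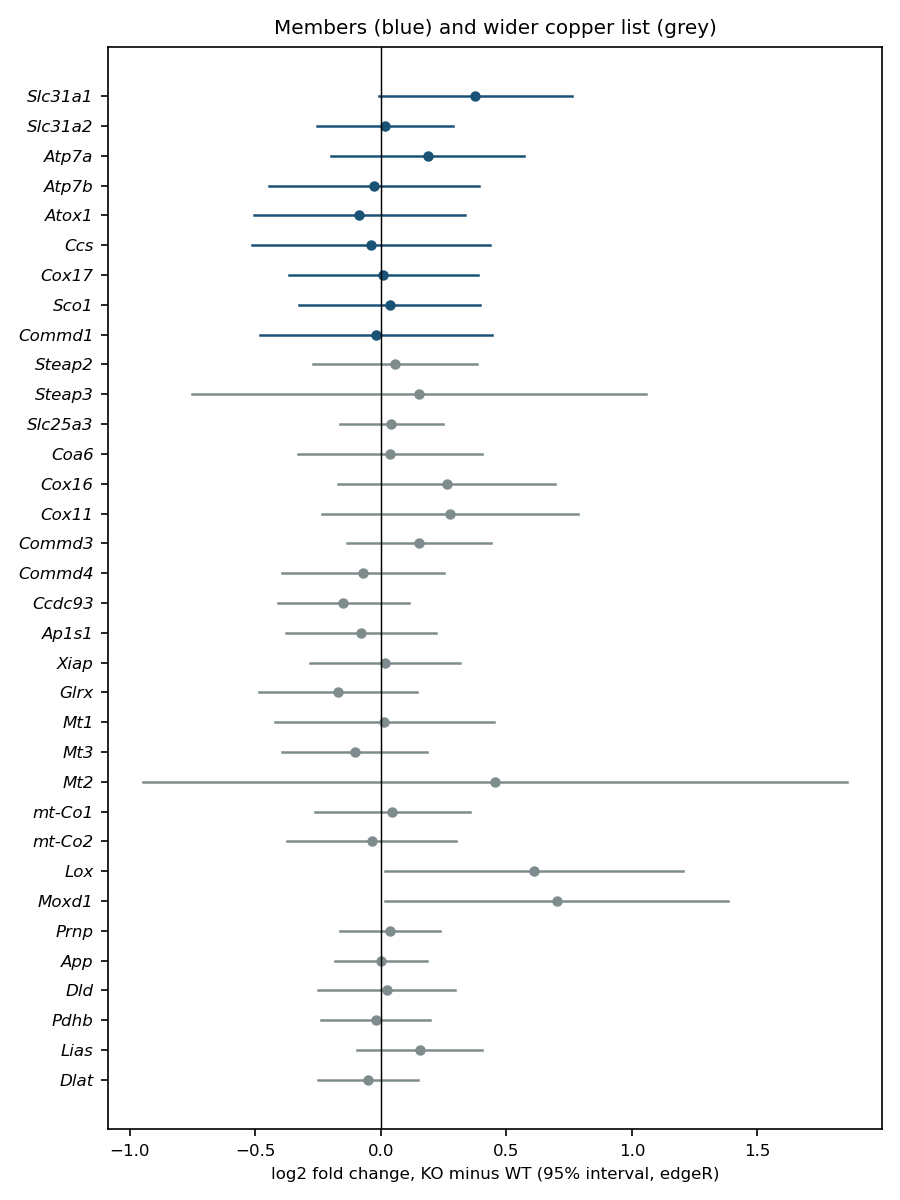
Log2 fold change (KO minus WT) with its 95% interval from edgeR for the 9 members (blue) and the named genes of the wider copper list (grey). Intervals of the 9 members all include 0, and those of Lox and Moxd1 (0.61 and 0.70) lie just above 0 before adjustment.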

How the data were processed

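RNA was extracted with TRIZOL and libraries were made by a sequencing company, per the labels' protocols. The submitters' processing notes name HISAT2, DESeq2 and the build GRCm38.p6; no source used here gives the counting program, its strand setting or any version. The deposited count columns hold raw whole-number counts per gene, and the authors' FPKM columns hold these counts over the listed gene length and 1 constant per library. The authors' deposited group means are a normalized signal, not used here, and their log2 fold changes and p-values are a comparison of KO with WT.

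The whole table was fitted in R 4.3.3 by edgeR 4.0.16 (quasi-likelihood F test, TMM, filterByExpr by group, Benjamini-Hochberg adjustment over 17142 genes, calls under 0.05). Standard errors were derived from the fold change and its F value, and 1 count was worth 0.0629 to 0.0733 CPM. limma 3.58.1 and DESeq2 1.42.0 were alternatives, and tables were handled in Python 3.11.15. Shared exons were measured in GENCODE M21, whose gene spans equal the listed ones for 8 of 9 members. The steps were tested on simulated data. Members, lists, named genes and settings were chosen with earlier results of these data known. Named genes were the 9 members, the 2 highest by FPKM and the 2 of smallest p in each group of the wider list, Slc39a14 and Ttr; others were named after their values were seen.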

Additional observations from a re-analysis of the deposited data

How the results depend on the processing

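Each of the 9 members stayed uncalled under all 15 alternatives, with adjusted p of at least 0.685. Slc31a1 and Atp7a kept a positive log2 fold change under all 15 (0.07 to 0.55 and 0.03 to 0.30); the other 7 changed sign under 1 to 3 of them. With the choroid plexus score as a covariate Atp7b was at 0.0308, and without WT 5 and KO 4 together Commd1 was at 0.0753. With single libraries left out the values were -0.0332 to 0.0633 for Slc31a2, -0.0561 to 0.00251 for Atp7b, -0.241 to 0.0905 for Atox1, -0.206 to 0.190 for Ccs, -0.0794 to 0.167 for Cox17, -0.0696 to 0.169 for Sco1 and -0.216 to 0.0993 for Commd1.

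The 8 genes called over the whole table became 142 with no filter on low counts, 42 with DESeq2, 2 with the covariate, 40 without WT 5 and KO 4 together, and 0 to 28 with single libraries left out (0 without WT 1 or WT 3, 28 without WT 5, 2 without KO 2, 17 without KO 4, 3 without KO 6). The wider list had 1 call with no filter on low counts, Dbh; the cause was not tested. That fit also gave Ttr an adjusted p of 2.13e-48, although KO 6 (554 CPM) lay below WT 1 (667 CPM). Per length, the principal transcript, a choice added after the data were seen, moved Slc31a2, Atp7a, Cox17, Sco1 and Commd1 by more than 1 SD, to 10.3, 2.87, 25.6, 5.12 and 1.34 FPKM. No paired analysis was possible because the labels match no KO animal with a WT animal.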

Other observations

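Of the 59 further copper genes 9 did not pass the filter on low counts. Dbh, the copper enzyme that makes noradrenaline, had 4, 2 and 2 counts in KO 2, 4 and 6, against 18, 8 and 35 counts in WT 1, 3 and 5. Every KO library lay below every WT library. Without the filter its log2 fold change was -2.94 (SE 0.65; edgeR adjusted p = 0.00194), and with DESeq2 it was -3.01 (adjusted p = 0.203); the authors' deposited table gives -3.01 with an adjusted p of 0.289. Slc6a2, the noradrenaline transporter and a marker of the same neurons, had 4, 11 and 3 counts in KO 2, 4 and 6, against 19, 5 and 23 counts in WT 1, 3 and 5, so that KO 4 lay above WT 3. Th, which makes the precursor of dopamine and noradrenaline, had 110, 90 and 70 counts in KO 2, 4 and 6, against 70, 76 and 34 counts in WT 1, 3 and 5. These genes were named after their values were seen, and the part of brainstem tissue in the libraries was not tested.

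Several genes of the copper route were listed at or near 0 where their exons are shared with other genes. Sco2, the partner of Sco1, had 0 counts in all 6 libraries, and every base of its principal transcript lies in exons of Ncaph2 or Tymp. Ccdc22, a partner of COMMD1, had 0, 2 and 0 counts in KO 2, 4 and 6 and 0 counts in each WT library, with 94.2% of its principal transcript in exons of Gm36995 or Foxp3. Commd5 had 8, 11 and 4 counts in KO 2, 4 and 6, against 2, 3 and 4 counts in WT 1, 3 and 5, with 91.3% shared with Gm49527. No level is read from these counts. Tyr and Hephl1 also had 0 counts in every library and share no exon bases with another gene, Aoc1 had 0 to 3 and Loxl4 2 to 13. The metalloreductase Steap4 had 9, 14 and 18 counts in KO 2, 4 and 6, against 6, 3 and 3 counts in WT 1, 3 and 5, with no overlap between the groups. Without the filter its log2 fold change was 1.72 (SE 0.68, edgeR adjusted p = 0.834), and DESeq2 did not call it either.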
